A study of Arabidopsis thaliana with 4 samples.

Results

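Glutathione S-transferases (GSTs) were followed in root tips of Arabidopsis thaliana, in wild type (WT) and in a line labelled SCL28-OX. The genes were taken as every entry of the authors' deposited comparison whose description names a glutathione S-transferase or glutathione transferase. This gave 58 of the 26822 entries used: 28 of the tau class (GSTU), 12 of the phi class (GSTF) and 18 others. The others held theta (GSTT), zeta (GSTZ), lambda (GSTL) and dehydroascorbate reductase (DHAR) genes and 8 genes without a class symbol. Both genotypes were of the Col-0 ecotype, 5 days old, raised on agar of half-strength Murashige and Skoog salts in constant light at 22 °C. SCL28 encodes a transcription factor of the GRAS family, and the OX line carries more of its transcript. The promoter of that copy and the number of lines behind SCL28-OX were not given in the labels. Each genotype had 2 libraries, but nothing in the labels says that these are separate cultures. The p-values therefore reflect only how far the libraries spread, which can be technical.

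GSTs join the tripeptide glutathione to electrophilic compounds, among them herbicides, reactive lipids and plant metabolites, and the conjugates are moved into the vacuole. Tau and phi are the large plant classes, and their active site holds a serine. The lambda and DHAR classes carry a cysteine there instead and act as glutathione-dependent reductases rather than as conjugating enzymes. Zeta enzymes isomerise maleylacetoacetate in tyrosine breakdown, and theta enzymes reduce organic hydroperoxides. Many tau and phi genes are induced by chemical stress through TGA factors, bZIP proteins that bind the sequence TGACG, in some cases together with the GRAS protein SCL14.

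Levels are given in FPKM, fragments scaled to transcript length and to the size of the library, as the authors deposited them. The libraries summed to 951429 and 945618 FPKM in WT and to 848731 and 849311 FPKM in SCL28-OX. Steps between low values put 1 FPKM of a 1000-base transcript at 21.7 to 27.6 fragments, under the condition that each library was scaled by its own fragments. SCL28 (AT1G63100), the check of the labels, stood at 6.78 and 7.57 FPKM in WT and at 2378 and 2300.2 FPKM in SCL28-OX. Of 5 genes listed for the root stem cell niche and meristem, all 5 were above the 1 FPKM minimum. Markers of mature tissue were present as well, such as CASP1 of the differentiated endodermis, at 242 and 241 FPKM in WT and 267 and 258 FPKM in SCL28-OX. The labels name the tissue as root tip, whereas the extraction protocol speaks of roots.

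Most GST transcripts were lower in SCL28-OX. Of 58 genes, 51 reached a 4-library mean of 1 FPKM and were tested with limma on log2(FPKM + 1), with Benjamini-Hochberg adjustment over all 18087 entries tested. At an adjusted p under 0.05, 45 GST genes were lower, 2 were higher and 4 did not pass. Over all entries 33.8% were lower and 32.7% were higher. The median log2 change of the 51 genes was -0.39, and that of all entries tested was -0.01. In 46 GST genes both SCL28-OX libraries lay below both WT libraries, in 3 they lay above, and in 2 the genotypes overlapped. The same separation was found at 42.1% of all entries downwards and at 41.4% upwards. By the q-value of the authors' deposited table, 43 GST genes were lower and 2 higher at the same threshold, beside 28.3% and 29.9% of all entries with a test there.

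Part of this was shared with short transcripts in general. The log2 change between the genotypes rose with transcript length, with a Spearman's rho of 0.68 across 17780 genes, which are not independent replicates. GST transcripts are short, from 660 to 2121 bases with a median of 951 bases. Of the 51, 27 belonged to the second of 10 length groups, which spans 747 to 972 bases, where the median log2 change of all genes was -0.32. A further 14 belonged to the third group, of 973 to 1186 bases, where it was -0.22. The length trend moved with genotype, since within WT the ratio of both libraries had a rho of 0.041 with length, and within SCL28-OX one of -0.0076.

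**Figure D1:**
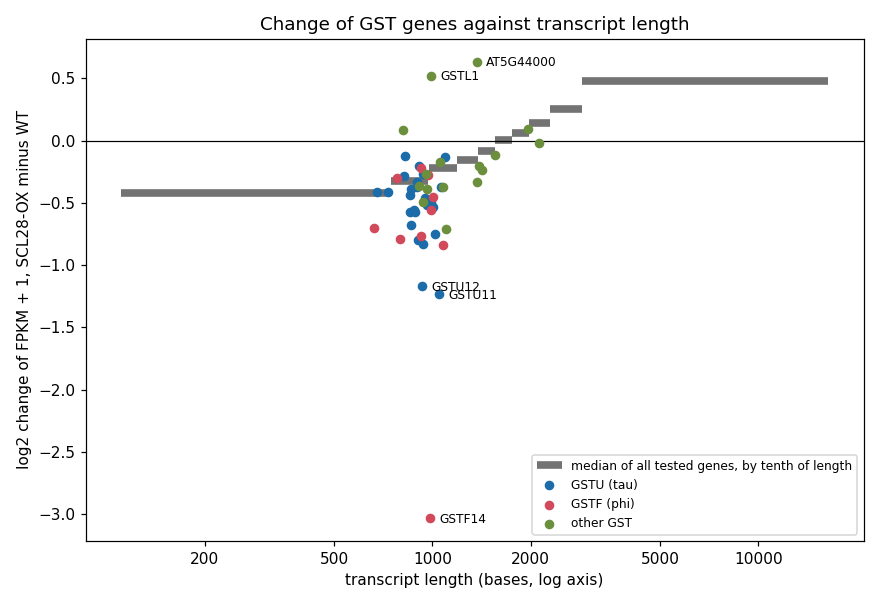
Log2 change of each tested GST gene (points, by class) against transcript length in bases on a log axis, with grey bars for the median change of all tested genes in each of 10 groups by length. Most GST points lie between 747 and 1186 bases and below 0, and GSTF14, at -3.03, lies furthest from the bars.

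Each library was therefore also corrected for its trend on length, and these values stand beside the uncorrected ones for the GST genes and for the counts of each list. After this length correction 28 GST genes were lower, 5 were higher and 18 did not pass, against 22.3% lower and 22.9% higher over all 17780 entries with a length. All 28 had also been lower without the correction. The median log2 change of the 51 GST genes was then -0.15, and that of all entries was -0.0059. A further correction for GC content left 27 lower and 7 higher, where all entries gave 19.9% and 21.1%, and 25 genes were lower in all 3 fits. Whether the trend on length came from the RNA, the libraries or the genotype was not tested. In whole tissue, fewer cells of a type and less RNA per cell cannot be told apart.

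The summed level of the 58 genes was 9879 and 9711 FPKM in WT and 7294 and 7258 FPKM in SCL28-OX. Both SCL28-OX libraries lay below both WT libraries. The mean went from 9795 ± 119 FPKM to 7276 ± 25.6 FPKM (SD, n = 2), to 74.3% of WT. As a share of all FPKM in a library, GST genes took 1.04% and 1.03% in WT and 0.859% and 0.855% in SCL28-OX. GSTU genes kept 71.3% of their WT sum, GSTF genes 75.0% and the others 82.4%. The GSTF sum leaves out GSTF8, which appeared only in an entry joined with AT2G47720. That entry went from 417 and 404 FPKM in WT to 574 and 581 FPKM in SCL28-OX, and its reads cannot be assigned to GSTF8. GSTU19, GSTF9 and GSTF10 alone made up 50.4% and 49.97% of the GST sum in WT and 50.9% and 50.4% in SCL28-OX, so that sum rests largely on these 3 genes.

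**Figure D2:**
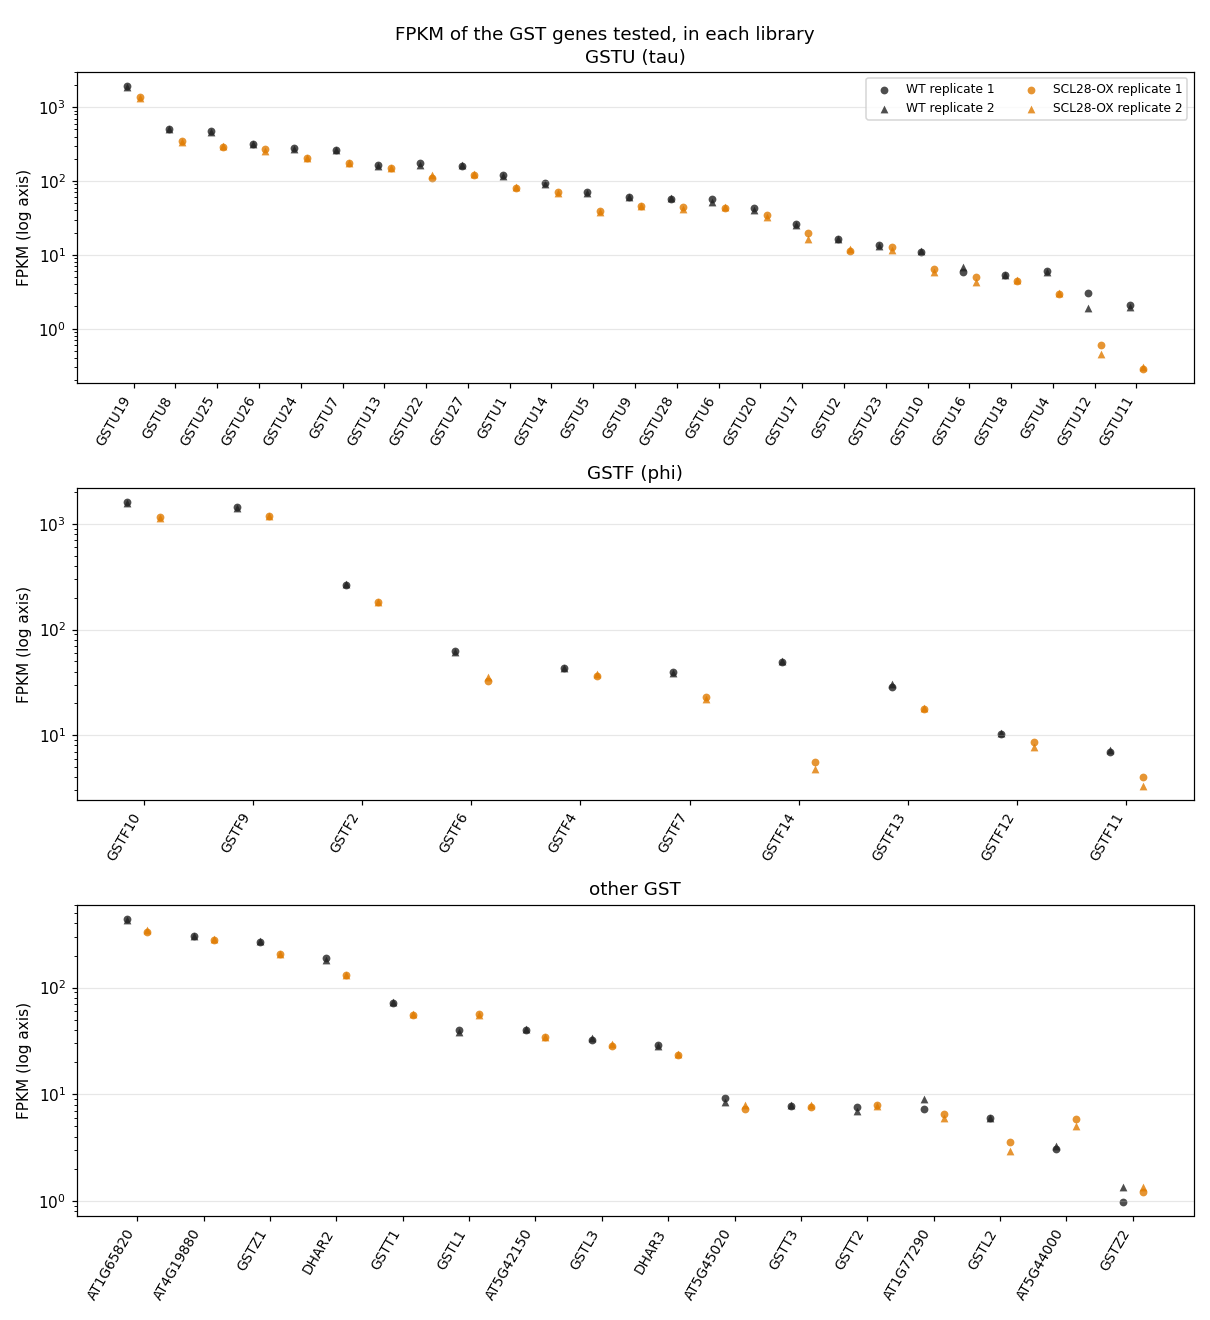
FPKM on a log axis for each tested GST gene in the 4 libraries, in a panel for each class, with genes in order of mean level (circles and triangles are replicates 1 and 2, dark for WT and orange for SCL28-OX). Levels run from below 1 FPKM to a mean of 1901 FPKM in WT for GSTU19, and the orange points lie below the dark ones in most genes, GSTL1 and AT5G44000 being exceptions.

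GSTU19 (AT1G78380, TAIR10 chromosome 1, 29486413 to 29487906), a tau enzyme with broad conjugating activity, had the highest GST level. It stood at 1931 and 1871 FPKM in WT and at 1358 and 1338 FPKM in SCL28-OX. The genotypes did not overlap, and the log2 change was -0.50 ± 0.02 (SE; limma adjusted p = 1.25e-06). After the length correction it was -0.24 (limma adjusted p = 5.42e-05). GSTF10 stood at 1597 and 1573 FPKM in WT and at 1172 and 1141 FPKM in SCL28-OX, a log2 difference of -0.45 ± 0.02 (SE; limma adjusted p = 1.44e-06), or -0.20 after the correction. Its neighbour GSTF9 stood at 1454 and 1409 FPKM in WT and at 1182 and 1176 FPKM in SCL28-OX, a log2 difference of -0.28 ± 0.02 (SE; limma adjusted p = 1.31e-05). GSTF10 was thus called lower in both fits, while GSTF9 was at -0.016 after the length correction (limma adjusted p = 0.501) and at -0.13 with GC content added (limma adjusted p = 0.000927).

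The other GST genes of high level were likewise lower without a correction, by unequal amounts. GSTU8 stood at 513 and 505 FPKM in WT and at 343 and 339 FPKM in SCL28-OX (log2 change -0.58, or -0.27 after the length correction). GSTU25, whose enzyme can act on the explosive trinitrotoluene, stood at 469 and 465 FPKM in WT and at 289 and 296 FPKM in SCL28-OX (-0.67, or -0.36). Both genes passed in both fits. AT1G65820, described as a putative glutathione S-transferase, stood at 442 and 434 FPKM in WT and at 332 and 349.9 FPKM in SCL28-OX (-0.36), and at -0.070 it no longer passed after the correction (limma adjusted p = 0.0604). AT4G19880, a GST family protein gene with a longer transcript of 1551 bases, stood at 304 and 305 FPKM in WT and at 278 and 285 FPKM in SCL28-OX (-0.11, or -0.079 after the length correction, limma adjusted p = 0.0167), and with GC content added it no longer passed (-0.00087, limma adjusted p = 0.978). GSTU26 stood at 315 and 319.7 FPKM in WT and at 269 and 258 FPKM in SCL28-OX (-0.27). Its length-corrected value was 0.012 (limma adjusted p = 0.745), and with GC content added it was called higher (0.084, limma adjusted p = 0.0452). Among these 8 genes of highest level, GSTF9, AT1G65820 and GSTU26 thus lost their call with the length correction. Quantile normalization left smaller changes in several of them, such as -0.14 for GSTU19 and -0.16 for GSTF10, ended the call for GSTF9 (-0.010, limma adjusted p = 0.603) and turned AT4G19880 to a called rise (0.088, limma adjusted p = 0.00695).

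GSTF14 (AT1G49860, TAIR10 chromosome 1, 18458666 to 18459906, plus strand, 3 exons) had the largest fall of the family and the lowest log2 change of all 18087 entries tested. It stood at 49.1 and 49.96 FPKM in WT and at 5.57 and 4.83 FPKM in SCL28-OX. The replicates lay close together and the genotypes far apart, about 1331 and 1129 fragments against 127.5 and 103 by the steps of low values. The mean went from 49.5 ± 0.595 to 5.20 ± 0.528 FPKM (SD, n = 2), 9.53-fold lower, with a log2 difference of -3.03 ± 0.06 (SE; limma adjusted p = 2.68e-07). It was -2.77 ± 0.06 (SE) after the length correction and -2.69 with GC content added. Among GST genes it ranked 31st by mean level, so its fall took little from the family's sum.

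GSTU11 and GSTU12, neighbouring tau genes of chromosome 1 (26337497 to 26338795 and 26334250 to 26335558), had the next largest falls, both from low levels. GSTU11 stood at 2.12 and 1.97 FPKM in WT and at 0.283 and 0.305 FPKM in SCL28-OX, or about 61.8 and 47.8 fragments against 7.0 and 7.0. The genotypes did not overlap, and the log2 change was -1.23 ± 0.11 (SE; limma adjusted p = 3.92e-05), or -1.002 after the length correction. GSTU12 stood at 3.07 and 1.89 FPKM in WT and at 0.606 and 0.451 FPKM in SCL28-OX. Its WT libraries differed, yet both lay above SCL28-OX, and its log2 change was -1.17 ± 0.17 (SE; limma adjusted p = 0.000528), or -0.89 after the correction. Because the pseudocount of 1 FPKM damps the change of low genes, the ratio of means was larger than these values imply, 6.95-fold for GSTU11 and 4.69-fold for GSTU12. With GSTF14 these were the 3 GST genes that passed with a log2 change of -1 or less, as did 0.376% of all entries tested.

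The next 5 falls were of moderate size, and each passed in all 3 fits. GSTF6, whose enzyme takes part in synthesis of the defence compound camalexin, stood at 62.3 and 61.3 FPKM in WT and at 32.7 and 35.7 FPKM in SCL28-OX, a log2 difference of -0.84 ± 0.04 (SE; limma adjusted p = 3.44e-06). GSTF7, beside it, stood at 39.4 and 38.9 FPKM in WT and at 23.0 and 22.2 FPKM in SCL28-OX, a log2 difference of -0.77 ± 0.04 (SE; limma adjusted p = 2.47e-06). In neither gene did the genotypes overlap. Only 91.0% of the 50-base words of GSTF6 and 90.8% of those of GSTF7 occur in no other annotated gene, so reads may be shared between these near copies and each value is uncertain. GSTU5 stood at 70.8 and 68.4 FPKM in WT and at 39.8 and 37.6 FPKM in SCL28-OX, a log2 difference of -0.83 ± 0.04 (SE; limma adjusted p = 1.97e-06). Its neighbour GSTU4 stood at 6.02 and 5.81 FPKM in WT and at 2.94 and 3.01 FPKM in SCL28-OX, a log2 difference of -0.80 ± 0.07 (SE; limma adjusted p = 4.92e-05). GSTU4 thus lay far below GSTU5 in level, where the pseudocount of 1 FPKM damps the log2 change more. The SCL28-OX mean was 50.3% of WT for GSTU4 and 55.6% for GSTU5. GSTF11 stood at 6.96 and 7.19 FPKM in WT and at 4.003 and 3.34 FPKM in SCL28-OX, a log2 difference of -0.79 ± 0.09 (SE; limma adjusted p = 0.00012). After the length correction these 5 genes lay between -0.62 for GSTF6 and -0.46 for GSTF11. GSTF11 overlaps another RefSeq gene, AT3G03200, and strand use in the authors' counting was not given in the sources used here, so its value is uncertain.

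**Figure D3:**
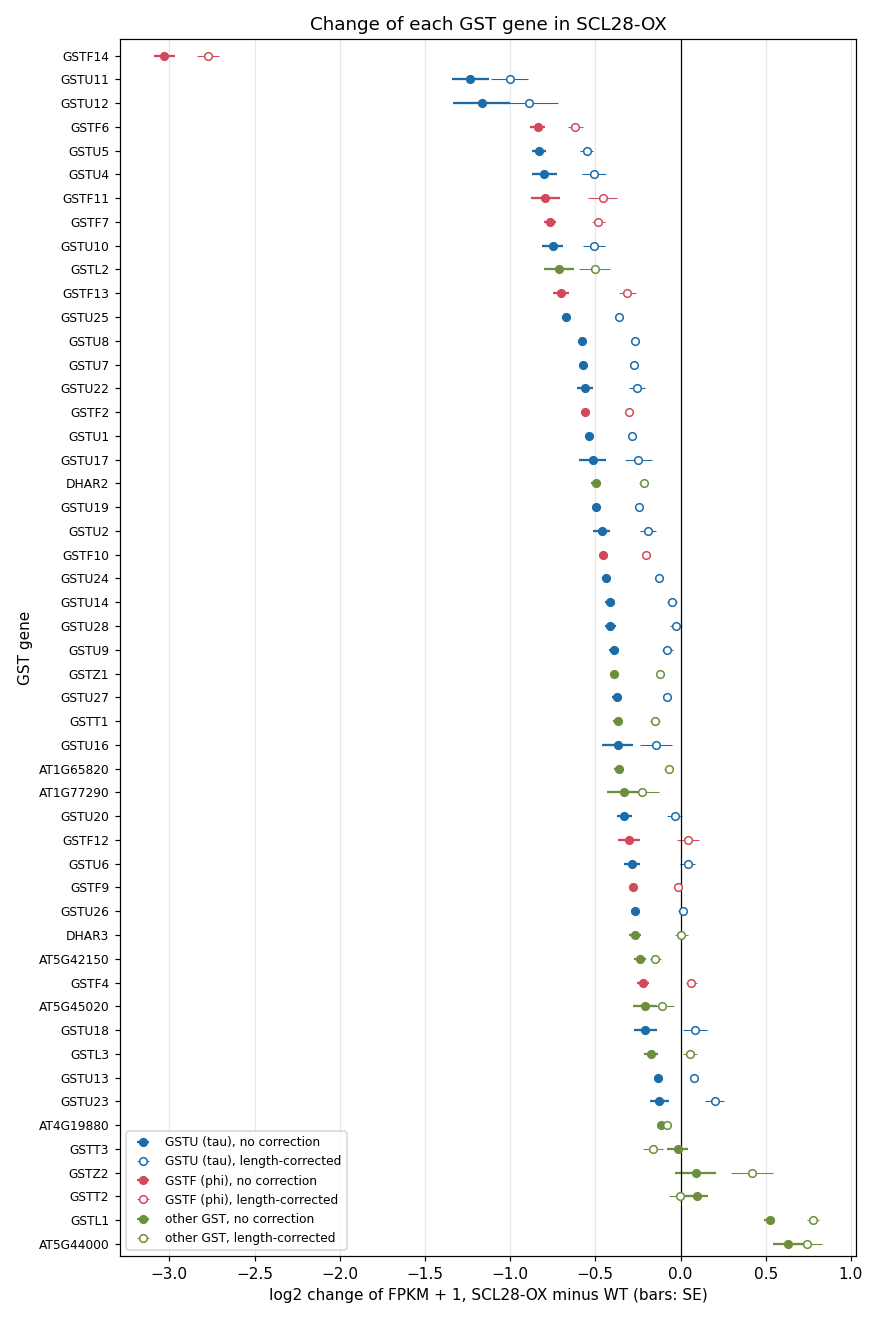
Log2 change of FPKM + 1, SCL28-OX minus WT, for the 51 tested GST genes in order of size (filled points without a correction, open points after the length correction, bars are SE, colours are classes). All 10 GSTF and 25 GSTU points without a correction lie below 0, and the open points lie to the right of them for all but the longest transcripts, GSTT3 and GSTT2.

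By class, all 10 GSTF genes tested were lower, with a median log2 change of -0.63, and 7 of them after the length correction, at a median of -0.31. Of 25 GSTU genes tested, 24 were lower, at a median of -0.46, and after the correction 15 were lower and 2 higher, at a median of -0.19. Of the 16 others, 11 were lower and 2 higher, at a median of -0.22, and after the correction 6 were lower and 3 higher, at a median of -0.094. GSTF14 does not set the GSTF median, as 5 more GSTF genes lay at -0.56 or lower. The joined entry that holds GSTF8, which was higher (0.49), is not among the 10 GSTF genes. Over all entries 33.8% were lower and 32.7% higher, or 22.3% and 22.9% after the length correction. The difference between classes was not tested. Across the 51 genes the log2 change had a Spearman's rho of -0.038 with mean level and of 0.24 with transcript length, given as a description over genes that share the same 4 libraries.

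Among the remaining GSTF genes, GSTF13 (-0.70, or -0.31 after the length correction) and GSTF2 (-0.56, or -0.30) were lower in both fits. GSTF2, whose protein binds indole and flavonoid compounds, shares some sequence with GSTF3, which was under 1 FPKM. GSTF2 and GSTF4 also overlap other RefSeq genes, and their values are uncertain. GSTF12, also known as TT19 and needed for the deposition of anthocyanins and proanthocyanidins in the vacuole, was lower without a correction (-0.30) and did not pass after it (0.043, limma adjusted p = 0.623). GSTF4 turned from lower (-0.22) to 0.064 (limma adjusted p = 0.16) and, with GC content added, to a called rise of 0.15.

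Among the remaining GSTU genes, GSTU10, GSTU7, GSTU22, GSTU1, GSTU17, GSTU2, GSTU24 and GSTU27 were lower in both fits, with log2 changes between -0.75 and -0.38 without a correction and between -0.51 and -0.080 with it. GSTU10, GSTU7 and GSTU2 overlap other RefSeq genes, so their values are uncertain. With GC content added GSTU2 (-0.086, limma adjusted p = 0.193) and GSTU27 (0.016, limma adjusted p = 0.636) no longer passed. GSTU24, like GSTU25 linked to trinitrotoluene breakdown, was at -0.44 and -0.13. GSTU14, GSTU28, GSTU9, GSTU16, GSTU20, GSTU6 and GSTU18 were lower without a correction (-0.41 to -0.21) and did not pass with it, though GSTU14 was again called lower with GC content added (-0.35, limma adjusted p = 7.53e-05). Leaving out WT replicate 2 ended the call for GSTU16 (-0.37, then limma adjusted p = 0.0599). GSTU20, which encodes a partner of the jasmonate-conjugating enzyme JAR1, was at -0.33 and -0.035. The call for GSTU18 (-0.21, limma adjusted p = 0.0306) was lost when any 1 of the 4 libraries was left out (limma adjusted p = 0.0777 to 0.128). GSTU13 turned from -0.13 to 0.080 after the length correction, past the threshold on both sides, so its direction depends on the correction, and did not pass with GC content added (0.064, limma adjusted p = 0.0715). GSTU23 did not pass without a correction (-0.12, limma adjusted p = 0.0848) but was called lower without SCL28-OX replicate 1 (-0.18, limma adjusted p = 0.0422) and higher after the length correction (0.20, limma adjusted p = 0.0229).

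Of the genes outside both classes, 2 rose without a correction, and both were also called higher after the length correction and with GC content added. GSTL1 (AT5G02780, TAIR10 chromosome 5, 630876 to 632683), a lambda gene, stood at 39.7 and 38.1 FPKM in WT and at 56.8 and 55.8 FPKM in SCL28-OX. Both SCL28-OX libraries were higher, with a log2 difference of 0.52 ± 0.03 (SE; limma adjusted p = 9.66e-06), or 0.78 after the length correction. AT5G44000 (TAIR10 chromosome 5, 17702090 to 17703963), described as a GST family protein gene, stood at 3.03 and 3.27 FPKM in WT and at 5.90 and 5.00 FPKM in SCL28-OX. Its genotypes did not overlap either, with a log2 difference of 0.63 ± 0.09 (SE; limma adjusted p = 0.000557), or 0.74 after the correction. Without a correction and after the length correction, the other lambda genes were not called higher. GSTL2 was lower (-0.71, or -0.50 after the correction), though its interval overlaps another entry and its value is uncertain, and GSTL3 was lower without a correction (-0.17) at 0.053 with it (limma adjusted p = 0.319) and called higher with GC content added (0.14, limma adjusted p = 0.0247).

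The DHAR genes, which regenerate ascorbate with glutathione, differed in size of change. DHAR2 was lower in both fits (-0.50, or -0.22 after the length correction). DHAR3 was lower without a correction only (-0.27, or 0.0040). GSTZ1, the zeta gene of tyrosine breakdown, was again lower in both fits (-0.39, or -0.12). Its neighbour GSTZ2 lay near the 1 FPKM minimum, with a log2 change of 0.089 that did not pass (limma adjusted p = 0.545) and a called rise of 0.42 after the correction. Of the theta genes, GSTT1 was lower (-0.37, or -0.15), while GSTT2 (0.094, limma adjusted p = 0.237) and GSTT3 (-0.018, limma adjusted p = 0.811) did not pass. These 3 share sequence, with 93.2% to 96.3% of their 50-base words found in no other gene, and reads may be divided wrongly among them. AT5G42150 was lower in both fits (-0.24, or -0.15). AT1G77290 and AT5G45020 were lower without a correction only (-0.33 and -0.21). Leaving out WT replicate 2 (limma adjusted p = 0.111) or SCL28-OX replicate 2 (limma adjusted p = 0.0759) ended the call for AT1G77290. For AT5G45020 the same held for WT replicate 1 (limma adjusted p = 0.179) and SCL28-OX replicate 1 (limma adjusted p = 0.138).

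Of the 7 genes under 1 FPKM, GSTF5 was listed at 0 in all 4 libraries. GSTU3, GSTU15, GSTU21, GSTF3, AT1G19550 and AT5G44990 had means of 0.061 to 0.23 FPKM in WT, at most about 6 fragments in a library, where a difference was not detectable at this depth. The description rule left out related genes. DHAR1, whose description names no GST, was at 212 and 199.8 FPKM in WT and at 159.8 and 156 FPKM in SCL28-OX (log2 change -0.38, or -0.090 after the length correction), lower in both fits. GSTF8, a phi gene known for its induction by stress, appeared only in an entry joined with AT2G47720, whose reads were not divided. That entry stood at 417 and 404 FPKM in WT and at 574 and 581 FPKM in SCL28-OX, a log2 difference of 0.49 ± 0.02 (SE; limma adjusted p = 1.77e-06). Its sign is opposite to that of the phi genes tested, but it cannot be assigned to GSTF8. The entry had no length, so no length-corrected value exists.

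GST genes lie in tandem. Counting neighbours no more than 10 kb apart, 38 of the 58 genes fell into 13 arrays, each on 1 strand. All 28 GSTU genes had transcripts of 2 exons in RefSeq. The longest array held 7 genes, GSTU7, GSTU6, GSTU5, GSTU4, GSTU3, GSTU2 and GSTU1, on chromosome 2 from 12616564 to 12632473. Of these, 6 were lower, with log2 changes of -0.83 to -0.29, 5 of them also after the length correction, and GSTU3 was under 1 FPKM. Levels in this array nonetheless ran from 0.161 FPKM for GSTU3 to 259 FPKM for GSTU7 in WT. In the array of 5 from GSTU23 to GSTU19 on chromosome 1, GSTU19 stood at 1901 FPKM in WT and GSTU21 at 0.233 FPKM. There GSTU22, GSTU20 and GSTU19 were lower, and GSTU22 and GSTU19 also after the correction. The array of GSTF7, GSTF6, GSTF5 and GSTF4 held 3 lower genes and the 1 listed at 0. In the pair of GSTL1 and GSTL3 the neighbours were called in opposite directions without a correction, and in no other array was a gene called higher in that fit. Falls were not particular to the arrays, as 24 of all 25 GSTU genes tested were lower, or 15 after the length correction. Of all entries 33.8% were lower, or 22.3% after that correction.

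Promoter windows are shown for the gene with the largest fall and for both ends of the 7-gene array. They hold the 250 bases before the RefSeq start, read 5′ to 3′ from TAIR10.1, and capitals mark TGACG or its complement CGTCA, which can overlap. The GSTF14 window is chr1:18458276-18458525 on the plus strand, and its RefSeq start lies at -140 from the deposited start. The GSTU7 window is chr2:12618900-12619149 and the GSTU1 window chr2:12632539-12632788, both on the minus strand. Their RefSeq starts lie at 0 and -65 from the deposited starts.
GSTF14: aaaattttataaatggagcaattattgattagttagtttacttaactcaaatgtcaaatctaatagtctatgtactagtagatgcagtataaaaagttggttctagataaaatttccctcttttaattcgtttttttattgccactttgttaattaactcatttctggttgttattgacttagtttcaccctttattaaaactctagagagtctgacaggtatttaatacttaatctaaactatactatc
GSTU7: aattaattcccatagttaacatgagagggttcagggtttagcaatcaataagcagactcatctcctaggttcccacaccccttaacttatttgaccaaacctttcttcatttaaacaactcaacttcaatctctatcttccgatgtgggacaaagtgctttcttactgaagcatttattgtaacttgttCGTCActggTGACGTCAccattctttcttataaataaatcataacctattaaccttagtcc
GSTU1: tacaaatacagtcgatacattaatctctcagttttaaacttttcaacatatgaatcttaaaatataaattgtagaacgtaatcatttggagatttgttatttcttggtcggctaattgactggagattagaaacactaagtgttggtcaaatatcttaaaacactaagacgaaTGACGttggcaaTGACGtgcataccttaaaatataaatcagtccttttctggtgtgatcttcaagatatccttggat
The GSTU7 window held 3 matches, which begin at -61, -52 and -49, the last of them overlapping as TGACGTCA. The GSTU1 window held 2, at -77 and -65, and the GSTF14 window held none, as did those of GSTL1 and AT5G44000. Inside the same array the windows of GSTU6 and GSTU5 held 1 match each, and those of GSTU4 and GSTU2 held none. Over the tested genes 13 of 51 GST windows (25.5%) held a match, in 10 of 25 GSTU, 1 of 10 GSTF and 2 of 16 other genes. Of all 17779 windows of this length, 19.2% did. Among the 28 GST genes lower after the length correction 10 windows held a match, and among the other 23 there were 3. This split is mixed with class, as 15 of the 28 are GSTU genes, which hold 10 of the 13 windows with a match. The same split was not made over all entries, so no link between match and fall can be read from it. A match is a description of letters only, and no binding was measured.

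The genes that make and use glutathione did not share one direction. Beside the counts below, 33.8% of all entries tested were lower and 32.7% higher, or 22.3% and 22.9% after the length correction. In the list of glutathione synthesis, reduction and breakdown, 6 of 14 tested genes were higher and 3 lower, with a median log2 change of 0.040, and 2 and 4 after the length correction. OXP1 (0.57), which returns glutamate from glutathione breakdown, GGT1 (0.45), a gamma-glutamyl transpeptidase gene, and GR2 (0.36), a glutathione reductase gene, rose. GGCT2;2 (-0.43), of cytosolic glutathione breakdown, DHAR1 and GGCT2;3 (-0.17) fell. After the correction GGT1 (0.28), GR2 (0.19), GGCT2;2 (-0.31) and DHAR1 kept their calls, and OXP1 (-0.0085) and GGCT2;3 (0.11) did not pass. Among glutathione peroxidase-like genes, 5 of 6 fell and none rose, at a median of -0.35, led by GPX8 (-0.51), GPX3 (-0.38) and GPX5 (-0.36). After the length correction 4 were lower and 1, GPX1, was higher (0.32), at a median of -0.12. With GC content added none of the 6 was called lower, and GPX1 (0.41) and GPX2 (0.084, limma adjusted p = 0.00661) were called higher. The list of sulphate uptake and cysteine synthesis, which supplies the cysteine of glutathione, had 4 of 17 higher and 7 lower (median -0.084), or 3 and 5 after the correction. SERAT2;2 (0.46), SULTR1;1 (0.40) and APS1 (0.21) rose, and LSU2 (-0.81), the sulphate reduction gene APR2 (-0.55) and SDI1 (-0.44) fell. After the correction SERAT2;2 was at 0.44, APS1 at 0.17, LSU2 at -0.39 and APR2 at -0.60, and SULTR1;1 (0.21) and SDI1 (-0.24) did not pass. APS1 no longer passed with GC content added (0.024, limma adjusted p = 0.425).

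Genes downstream of conjugation and upstream of GST induction were set beside these. The shares of all entries were again 33.8% lower and 32.7% higher, or 22.3% and 22.9% after the length correction. All 12 tested ABCC transporter genes, several of which carry glutathione conjugates into the vacuole, were higher, at a median log2 change of 0.63. ABCC4 went from 6.37 and 6.55 FPKM to 17.7 and 17.4 FPKM (1.31), ABCC12 was at 0.95 and ABCC14 at 0.93. ABCC transcripts are long, from 4401 to 5717 bases. With the length correction the split became 3 higher and 3 lower, at a median of -0.061, with ABCC4 at 0.67, ABCC14 at 0.29 and ABCC12 at 0.28. Of 11 genes for TGA factors and SCL14, 3 were higher and 5 lower (median -0.18), or 2 and 5 after the correction. SCL14 (0.38), TGA9 (0.37) and TGA10 (0.34) rose and TGA4 (-0.33), TGA7 (-0.21) and TGA2 (-0.20) fell. After the correction TGA9 (0.20), TGA10 (0.23), TGA4 (-0.54), TGA7 (-0.27) and TGA2 (-0.32) kept their calls, and SCL14 did not pass (0.069). Of 11 xenobiotic response genes other than GST, 2 rose and 5 fell (median -0.13), with the same counts after the correction. The falls called were not all the same genes. UGT74E2 (-0.13, or -0.086) lost its call with the correction and AT5G61820 (-0.061, or -0.14) gained one. The sterol desaturase gene CYP710A1 went from 12.2 and 11.8 FPKM to 26.8 and 26.4 FPKM (1.09, or 1.001 after the correction), and the multidrug transporter gene DTX1 rose by 0.45, or 0.40 after the correction. ANAC102 (-0.39, or -0.26), ANAC032 (-0.35, or -0.14) and OPR2 (-0.27, or -0.15) fell.

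**Figure D4:**
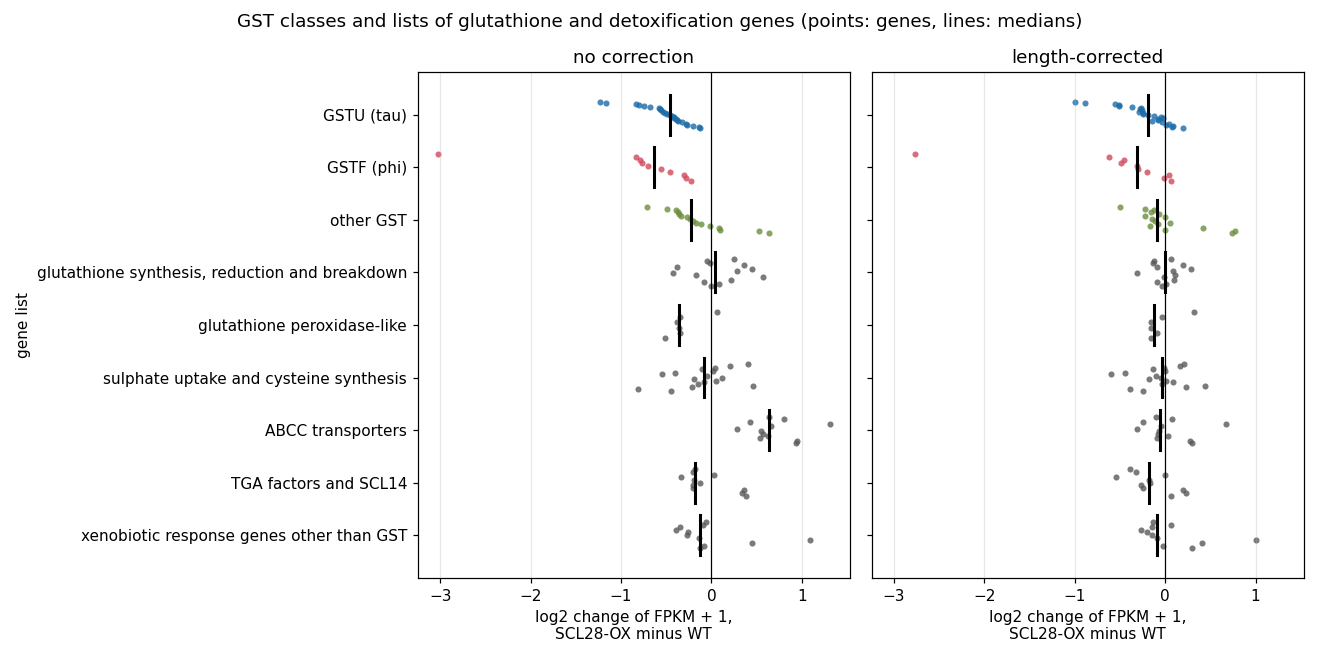
Log2 change of each tested gene (points) and the median (black lines) in the 3 GST classes and 6 lists of glutathione and detoxification genes, without a correction (left) and after the length correction (right). The ABCC median moves from 0.63 to -0.061 with the correction, while the GSTF median moves from -0.63 to -0.31 and the GSTU median from -0.46 to -0.19.

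Calls among cell type markers were counted as well, and several lists lay near the shares of all entries. Those shares were 33.8% lower and 32.7% higher, or 22.3% and 22.9% after the length correction. The 6 root hair markers summed to 325 and 332 FPKM in WT and to 509.6 and 504 FPKM in SCL28-OX. That rise rests largely on PRP3, at 73.6 and 78.9 FPKM in WT and 221 and 216 FPKM in SCL28-OX. Of the 6, 4 were higher and 2, EXP18 (-0.16) and RHD6 (-0.13), lower, or 5 and 0 after the length correction. With GC content added EXP18 was called lower again (-0.10, limma adjusted p = 0.0309). The 7 shoot photosynthesis markers summed to 56.6 and 53.3 FPKM in WT and to 86.9 and 90.1 FPKM in SCL28-OX. The 2 of the 5 tested that were higher, RBCS1A (0.99) and PSAD1 (0.83), made up most of that rise. None was lower, and after the correction 4 were higher and 0 lower. Of those higher, LHCB6 (-0.11, limma adjusted p = 0.13) and LHCA1 (0.25, limma adjusted p = 0.112) did not pass with GC content added. The 5 root cap markers summed to 79.8 and 83.5 FPKM in WT and to 72.4 and 72.9 FPKM in SCL28-OX, with 2 higher and 2 lower, or 1 and 3 after the correction. Endodermis markers had 2 of 7 higher and 2 lower, at a median log2 change of -0.0014, and 6 higher and 1 lower after the correction, at a median of 0.19. With GC content added ESB1 turned to a called fall (-0.13, limma adjusted p = 0.00211), and CASP4 (0.022) and CASP5 (-0.049) did not pass. Xylem markers had 4 of 6 higher and none lower, and niche and meristem markers had 1 of 5 higher, SCR (0.50), and 1 lower, PLT1 (-0.27). Both lists had the same counts after the correction. The xylem genes called were not the same, however. XCP2 and CESA7 kept their calls, CESA4 (0.036) and CESA8 (0.13) lost them, and VND7 (0.37) and XCP1 (0.074) gained them. In the remaining marker lists XCP1 (0.039), SCR (0.13) and SMB (-0.17) lost their length-corrected calls with GC content added, and SHR was called lower (-0.21). No marker was listed at 0 in all libraries. The part of these shifts in the GST values was not tested.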

How the data were processed

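RNA of 2 WT and 2 SCL28-OX samples was sequenced from TruSeq Stranded mRNA libraries, per the labels' protocols. Per the submitters' processing notes, CASAVA 1.8.2, TopHat2 2.0.13, Cuffdiff 2.2.0 and TAIR10 were used. The authors deposited FPKM per gene and library and a comparison table with p-values and q-values, per the file headers. Calls by this q-value were only set beside those made here. Of 26883 entries, 60 with shifted columns were left out and 1 is not analysed here. No read counts were used. Steps of low FPKM implied about 32900000, 27400000, 27800000 and 25900000 fragments; 92.8% to 94.1% of 412 to 442 values were whole within 0.1.

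Entries with a mean of at least 1 FPKM entered a limma 3.58.1 fit of log2(FPKM + 1) in R 4.3.3 (lmFit, eBayes with trend, two-sided, Benjamini-Hochberg, threshold 0.05). The code was tested on simulated data. The length and GC corrections subtracted from each library a lowess fit (span 0.3) of its deviation from the gene mean. Lengths are the longest RefSeq transcript in TAIR10.1, cut to the deposited interval. At 3799 entries on chromosomes 1 to 5 both ends equal the RefSeq gene, and positions count from 1. Members, lists, the motif and tests were chosen with earlier results of these data known. Named with library values are the 8 largest rises and 8 largest falls past the threshold and the 8 highest means, of which 2 rises existed; other GST genes are described by class, and lists by up to 3 rises and 3 falls. From the lists, CLT2, SULTR1;2, OASB, CYP81D11, UGT73B4 and UGT73B5 had no usable entry and are not analysed here, and DHAR2 and DHAR3 were counted with the GST genes.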

Additional observations from a re-analysis of the deposited data

How the results depend on the processing

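The counts of 45 lower and 2 higher GST genes stayed within 1.5 times under another pseudocount (0.1 or 5 FPKM), no filter, other scalings, other variance models, the authors' q-value, and without entries that share an interval or sequence (39 lower, 2 higher). With each library left out in turn, 42 to 44 were lower and 2 higher, with 22 to 24 GSTU and 10 GSTF genes lower. Replicate numbers were shared only as labels, with a correlation of deviations of 0.12, and the replicate block again gave 45 lower and 2 higher. A minimum mean of 5 FPKM left 1 higher gene, since fewer genes were tested. The length correction gave 28 lower and 5 higher (GSTU 15 and 2), and the length and GC correction 27 lower and 7 higher (GSTU 14 and 2, with 1 GSTF gene higher); the cause was not tested.

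The log2 change turned in sign after the length correction for DHAR3 (0.0040), GSTF12 (0.043), GSTF4 (0.064), GSTL3 (0.053), GSTT2 (-0.0037), GSTU13 (0.080), GSTU18 (0.084), GSTU23 (0.20), GSTU26 (0.012) and GSTU6 (0.041). With GC content added it turned for AT1G65820 (0.019), GSTF12 (0.035), GSTF4 (0.15), GSTL3 (0.14), GSTU13 (0.064), GSTU23 (0.27), GSTU26 (0.084), GSTU27 (0.016) and GSTU6 (0.12). Quantile normalization turned AT4G19880 (0.088, limma adjusted p = 0.00695), ended the calls for GSTF9 (-0.010) and GSTU13 (-0.0085), made GSTU23 a called fall (-0.19) and cut by over 1.5 times the changes of GSTU19 (-0.14), GSTF10 (-0.16), AT1G65820 (-0.15), GSTU26 (-0.069), GSTU8 (-0.32), GSTU25 (-0.43), GSTU24 (-0.26) and GSTZ1 (-0.21), which stayed called lower. With libraries left out in turn, GSTT3 ranged from -0.044 to 0.0083 (above 0 without WT replicate 2 or SCL28-OX replicate 1) and GSTZ2 from -0.032 to 0.21 (below 0 without WT replicate 1), never called. Without the filter 8 GST calls were lost, GSTU12 among them (limma adjusted p = 0.0508). With 2 libraries per genotype and about 22 to 28 fragments per FPKM at 1000 bases, changes in genes near 1 FPKM rest on few fragments.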
